A study of Homo sapiens with 12 samples.

Results

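MECOM, SENP7, SETD2, KAT2B and MGA are 5 chromatin regulator genes that the study of E2F1 names around E2F1-linked RNA splicing, and they were taken here by gene symbol as 5 of the 25369 genes counted. They were measured by polyA RNA-seq in U2OS, a human osteosarcoma cell line, in 4 stable lines of 3 libraries each that carry a doxycycline-inducible (Tet-On) construct and were kept in G418 and hygromycin B. The control line, pTRE, holds the empty vector, and the other lines express HA-tagged E2F1 as the wild type (WT), as R109K, which lacks the arginine that PRMT1 methylates, or as KK (R111/113K), which lacks the arginines that PRMT5 methylates. Every library, the control included, came from cells given 1 µg/ml doxycycline for 24 hours, so each comparison is between stable lines and not between induced and uninduced cells of a line. Whether a line is a single clone is not given in the sources used here. The study's methods call the replicates biological, and the labels do not say from which cultures they came.

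E2F1 is a transcription factor that turns on genes for DNA replication and, in other settings, genes for cell death, and arginine methylation of E2F1 by PRMT1 or PRMT5 is known to shift which of these outcomes it favours. The 5 genes encode proteins that act at chromatin in different ways. KAT2B (PCAF) is a lysine acetyltransferase of the SAGA-type complexes and SETD2 is the enzyme that trimethylates lysine 36 of histone H3 in transcribed genes. MGA joins MAX in a repressor of the PRC1.6 type that shares sites with E2F6, SENP7 removes SUMO chains from proteins such as the heterochromatin protein HP1, and MECOM (EVI1) is a zinc finger factor of the PRDM family that binds CtBP corepressors.

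A gene-level count adds up all of a gene's transcripts, so it does not follow the inclusion of an exon, and the exons concerned are therefore shown before the counts. The study lists an event of the skipped-exon class for KAT2B in WT, KK and R109K alike, for SETD2 in WT alone and for MGA in KK alone, and for SENP7 and MECOM it follows junctions found with E2F1 in RNA immunoprecipitation. The class means that the inclusion of an exon differed from pTRE, in either direction. The change in inclusion that the study prints is positive for KAT2B and MGA and negative for SETD2. It also names KAT2B, SETD2 and MGA among the RNAs found with E2F1 in RNA immunoprecipitation. For SENP7 and MECOM it reports similar splicing events in its RNA-seq. In the GRCh37 annotation the KAT2B exon was exon 17 of 18 of the canonical transcript, at chr3:20189895-20189979 on the plus strand, and it lies in the part that codes for the bromodomain. It is 85 bases long, all of them coding, which is not a multiple of 3. The SETD2 exon was exon 7 of 21 at chr3:47144836-47144913 on the minus strand, within the stretch that codes for the catalytic SET domain. It is 78 bases long, all coding and a multiple of 3. Both exons are short enough to print whole and are given in the direction of the RNA.
KAT2B exon 17: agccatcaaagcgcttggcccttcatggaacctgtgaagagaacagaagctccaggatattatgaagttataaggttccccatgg
SETD2 exon 7: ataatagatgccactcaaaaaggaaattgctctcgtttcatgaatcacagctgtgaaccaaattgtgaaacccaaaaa

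The SENP7 variant lacks exons 5 and 6 of the 24 exons of the canonical transcript, at chr3:101136437-101136634 and chr3:101117705-101117899 on the minus strand. Both exons are wholly coding, with 198 and 195 bases, and both lengths are multiples of 3. The exons resemble each other: 146 of 199 aligned columns were identical (73.4%), and the longest run they share, 14 bases, is in capitals.
SENP7 exon 5: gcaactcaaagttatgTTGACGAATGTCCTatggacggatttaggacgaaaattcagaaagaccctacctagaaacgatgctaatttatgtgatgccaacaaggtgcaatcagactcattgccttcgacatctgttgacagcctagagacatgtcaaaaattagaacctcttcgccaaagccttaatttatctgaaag
SENP7 exon 6: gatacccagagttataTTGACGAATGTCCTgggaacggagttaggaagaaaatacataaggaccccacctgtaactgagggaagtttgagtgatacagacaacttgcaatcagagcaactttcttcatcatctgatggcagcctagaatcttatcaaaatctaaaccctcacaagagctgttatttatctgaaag

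The MGA exon, exon 2 of a transcript of 22 exons, is much longer, with 1131 bases of which 1064 are coding, at chr15:41961026-41962156 on the plus strand, and the MECOM junction passes over exon 2 of the 17 exons of the canonical transcript, with 338 coding bases at chr3:169098975-169099312 on the minus strand. The joined sequences below set the last 20 bases of the upstream exon, in lower case, against the first 20 bases of the downstream exon, in capitals, as passing over the exon would place them. For SETD2 the event is flanked by exons 5 and 9, so its junction passes over exons 6 and 8 as well as 7. These sequences are read from the reference genome and not from the libraries. In the annotation used here, the SENP7 junction was in 1 of 8 transcripts of the gene and the SETD2 junction in 1 of 26. The exact KAT2B, MGA and MECOM junctions were in none, and other releases were not used here.
KAT2B, exon 16 to 18: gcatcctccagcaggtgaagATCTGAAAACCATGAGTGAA
SETD2, exon 5 to 9: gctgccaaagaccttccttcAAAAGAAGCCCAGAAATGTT
MGA, exon 1 to 3: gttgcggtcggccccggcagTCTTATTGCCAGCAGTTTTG
SENP7, exon 4 to 7: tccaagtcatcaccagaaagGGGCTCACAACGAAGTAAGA
MECOM, exon 1 to 3: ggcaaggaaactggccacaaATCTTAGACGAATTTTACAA

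Promoter windows of 300 bases (250 before to 50 after each start) were at hand from RefSeq for KAT2B (1), SETD2 (1), MECOM (3) and MGA (3), and SENP7 had no entry. They were searched on both strands for the E2F-type motifs TTTCCCGC, TTTCGCGC, TTTGCCGC and TTTGGCGC (the letters share their ends, so matches on opposite strands can overlap). The third MGA window was the only one of the 8 with a match, and 3.31% of all 35116 windows in the table held one. Introns and other sequence outside these windows were not searched. The study reports E2F motifs in introns of SENP7 and MECOM, with E2F1 bound there in chromatin immunoprecipitation from other cell lines. A window without a match therefore does not mean a gene without an E2F site. The third MGA window is at chr15:41660497-41660796 (GRCh38.p14, plus strand), and the match, in capitals, begins 65 bases before the start.
MGA, the third start: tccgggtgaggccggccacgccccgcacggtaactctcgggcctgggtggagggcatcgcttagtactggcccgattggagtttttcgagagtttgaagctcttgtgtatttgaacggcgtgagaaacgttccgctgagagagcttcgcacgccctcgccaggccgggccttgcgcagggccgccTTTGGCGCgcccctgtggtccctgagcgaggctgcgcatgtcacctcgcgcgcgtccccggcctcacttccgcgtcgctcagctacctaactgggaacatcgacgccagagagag

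The libraries held between 11500537 and 31040903 reads on genes, and the 5 genes had between 266 and 4886 reads in each library. WT replicate 2 stood apart: it had the fewest reads on genes, 31.2% of its reads fell on genes and 58.7% outside annotated features, where the other 11 libraries had 59.0% to 65.7% on genes. The induced gene matched the labels, with a mean E2F1 level of 91.2 ± 9.43 CPM (the gene's reads scaled to library size; SD, n = 3 here and throughout) for pTRE. It was 1811 ± 445 CPM for WT, 1316 ± 187 CPM for KK and 1158 ± 196 CPM for R109K, and the log2 fold changes against pTRE were 4.31, 3.85 and 3.67. These values cannot separate the construct from the endogenous gene. Of 9 osteoblast lineage markers 5 could be tested and TWIST1 was at 0 in pTRE, while COL1A1 stood at 3557 CPM in pTRE and fell in every E2F1 line. Of these markers 2 fell in WT and 3 in each of KK and R109K, where 11.4%, 10.7% and 7.23% of all tested genes were called lower in WT, KK and R109K. The labels also call the cells epithelial, and of 6 epithelial markers, with KRT8 at 503 CPM in pTRE, 1 fell in WT, 2 in KK and 1 in R109K. Of 3 blood markers 1 was tested and 0 were called, with CD3E at 0 in pTRE, and of 3 endothelial markers only VWF was tested and it fell in every E2F1 line. No marker of any list rose, and the part of these shifts in the results below was not tested.

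Among the 5 genes, KAT2B rose in each of the E2F1 lines and no other member passed the test against pTRE. The threshold was an adjusted p under 0.01 from edgeR's quasi-likelihood test, adjusted over the 16625 genes tested, and all 5 genes passed the filter on low counts. That is 1 of 5 members in each comparison, where 26.2% of all tested genes were called in WT, 24.4% in KK and 17.3% in R109K. No member reached a change of over 2-fold together with that threshold, which 11.8%, 10.9% and 7.19% of the tested genes did in WT, KK and R109K. The median log2 fold change of the 5 was 0.17 in WT, 0.16 in KK and 0.05 in R109K, beside 0.00, -0.01 and 0.00 over all tested genes. The 3 comparisons share the pTRE libraries, and in bulk RNA a change in the RNA of each cell cannot be told apart from a change in the share of cells that carry it.

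**Figure D1:**
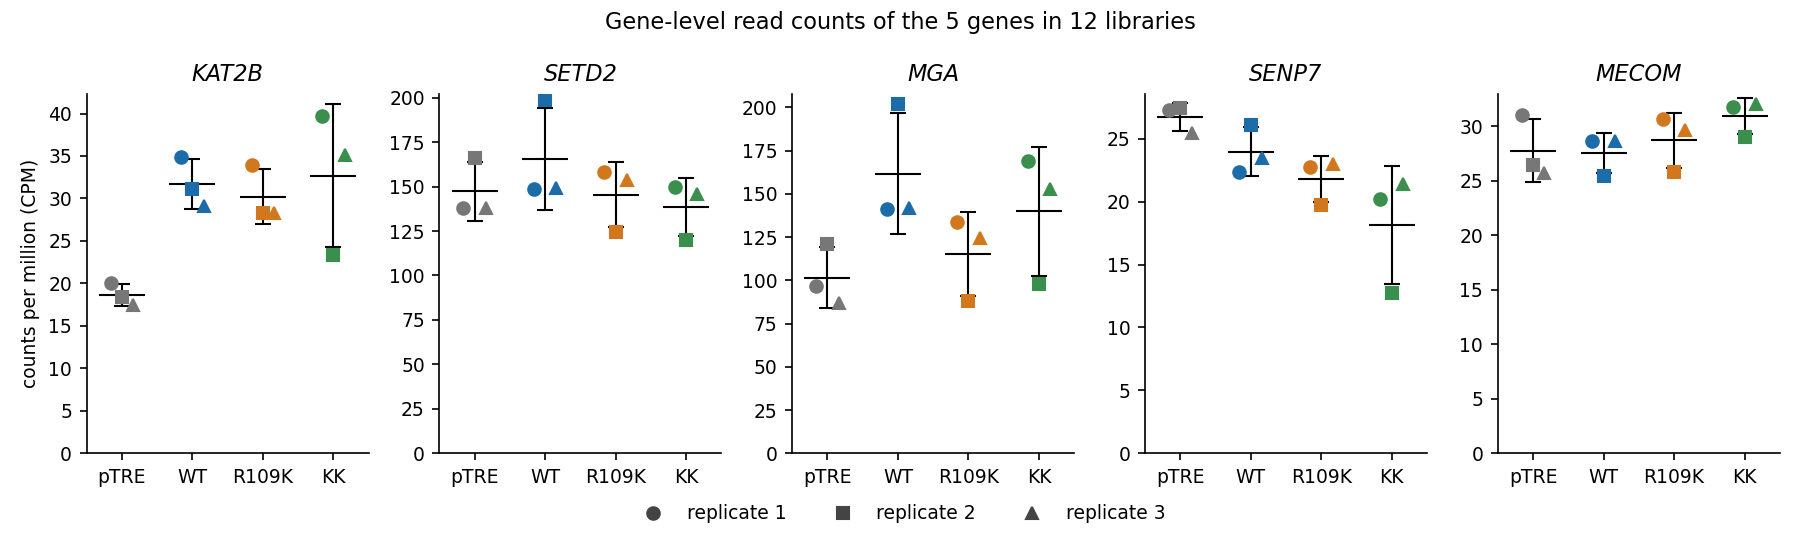
Level of each gene in CPM on a linear axis from 0, with 1 point for each library (circle, square and triangle for replicates 1, 2 and 3), a bar at the mean of the line and whiskers of 1 SD (n = 3). All KAT2B points of the E2F1 lines lie above the highest pTRE point (20.1 CPM), and the square of KK is the lowest of its line in all 5 panels.

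KAT2B lies on chromosome 3 (chr3:20081938-20195896, plus strand, ENSG00000114166). In pTRE it was at 20.1, 18.4 and 17.5 CPM in replicates 1, 2 and 3. In WT it was at 34.8, 31.1 and 29.1 CPM, in R109K at 34.0, 28.3 and 28.3 CPM, and in KK at 39.7, 23.3 and 35.1 CPM. The lowest value of any E2F1 line, KK replicate 2, was still above the highest pTRE value. The log2 fold change against pTRE was 0.76 in WT (SE 0.17, adjusted p = 0.00208), 0.81 in KK (SE 0.17, adjusted p = 0.00129) and 0.70 in R109K (SE 0.17, adjusted p = 0.00532), which is 1.70-fold, 1.76-fold and 1.62-fold. Among tested genes 24.4%, 19.9% and 19.5% had a larger absolute change in these comparisons. With 1 library left out, the R109K call was lost in each of the 6 ways (adjusted p 0.0107 to 0.0328) and the WT call in 3 of 6, without pTRE replicate 2 (0.0108), pTRE replicate 3 (0.0134) or WT replicate 1 (0.0113), while the KK call held in all 6 (up to 0.00933). The fold change without KK replicate 2 was 1.00 on the log2 scale.

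No difference in KAT2B was called between the E2F1 lines. The log2 difference was -0.07 for R109K against WT (95% interval -0.42 to 0.28), 0.05 for KK against WT (-0.30 to 0.40) and -0.12 for R109K against KK (-0.46 to 0.23). In order of level KK came first, then WT and R109K, with neighbours in that order within their spread, and pTRE last. The study lists its event at the exon shown above for all of these lines, and the gene-level count rose in all of them as well. The count does not show how many of these reads came from transcripts with or without the exon.

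SETD2 lies on the same chromosome (chr3:47057918-47205603, minus strand, ENSG00000181555) and passed no test. In pTRE it was at 138, 166 and 138 CPM in replicates 1, 2 and 3. In WT it was at 149, 198 and 149 CPM. Each line had 1 library away from the other 2, replicate 2 in every case, higher in pTRE and WT and lower in R109K (158, 124 and 153 CPM) and in KK (150, 120 and 146 CPM). All lines overlapped with pTRE. The log2 fold change was 0.17 in WT (SE 0.15, adjusted p = 0.378), -0.09 in KK (SE 0.15, adjusted p = 0.680) and -0.02 in R109K (SE 0.15, adjusted p = 0.949). The 95% intervals were -0.14 to 0.48 (WT), -0.40 to 0.22 (KK) and -0.33 to 0.29 (R109K), so a change of 2-fold lies outside each of them. In order of level WT came first, then pTRE, R109K and KK, with no neighbours separated by a test. The event listed for SETD2 in WT thus stands beside a gene-level count in WT that did not pass the test.

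MGA, on chromosome 15 (chr15:41913332-42065279, plus strand, ENSG00000174197), was higher in WT than in pTRE in all replicates but did not pass the threshold. In pTRE it was at 96.7, 121 and 86.6 CPM and in WT at 141, 202 and 142 CPM. The highest WT value came from WT replicate 2, the library with most reads outside annotated features. In R109K it was at 134, 87.9 and 124 CPM and in KK at 169, 98.0 and 153 CPM, and in both lines replicate 2 fell within the range of pTRE. The log2 fold change was 0.67 in WT (SE 0.21, adjusted p = 0.0211), 0.46 in KK (SE 0.21, adjusted p = 0.101) and 0.18 in R109K (SE 0.21, adjusted p = 0.574). DESeq2 called the WT difference (log2 fold change 0.68, adjusted p = 0.00632), and without WT replicate 2 it was 0.48 (adjusted p = 0.0806). The study lists its MGA event for KK alone, where the count was 1.38-fold that of pTRE and did not pass the test.

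In order of MGA level, WT came first, then KK, R109K and pTRE, and no neighbours in that order were separated by a test. R109K was below WT in all replicates, with a log2 difference of -0.49 (SE 0.21, 95% interval -0.94 to -0.03), which had an unadjusted p of 0.0375 and an adjusted p of 0.196 in edgeR's test. Without WT replicate 2 this difference was -0.30 (adjusted p = 0.558).

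SENP7 (chr3:101043049-101232085, minus strand, ENSG00000138468) was the member with the lowest levels in the E2F1 lines relative to pTRE, with no call in edgeR's test. In pTRE it was at 27.3, 27.5 and 25.5 CPM and in WT at 22.4, 26.1 and 23.5 CPM. In R109K it was at 22.7, 19.7 and 23.0 CPM and in KK at 20.2, 12.8 and 21.4 CPM. All R109K and KK libraries were below all pTRE libraries, while WT overlapped with pTRE through WT replicate 2. The log2 fold change was -0.56 in KK (SE 0.16, adjusted p = 0.0131), -0.29 in R109K (SE 0.16, adjusted p = 0.192) and -0.16 in WT (SE 0.16, adjusted p = 0.441). The KK difference missed the threshold by little and was called by DESeq2 (adjusted p = 0.00514), without the filter on low counts (adjusted p = 0.00931) and without KK replicate 3 (-0.69, adjusted p = 0.00736). Without KK replicate 2, the lowest library, it was -0.36 (adjusted p = 0.0344). 

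KK was below WT in SENP7 in all replicates, with a log2 difference of -0.40 (SE 0.16, 95% interval -0.74 to -0.05), an unadjusted p of 0.0269 and an adjusted p of 0.574 in edgeR's test. The order of levels was pTRE, WT, R109K and KK, and no neighbours in it were separated by a test. The variant without exons 5 and 6 is counted together with the full transcript here, and its share was not measured.

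MECOM (chr3:168801287-169381563, minus strand, ENSG00000085276) had nearly the same level in all lines. In pTRE it was at 31.1, 26.4 and 25.7 CPM and in WT at 28.6, 25.5 and 28.6 CPM. In R109K it was at 30.6, 25.8 and 29.6 CPM and in KK at 31.8, 29.0 and 32.1 CPM. The KK libraries were all above the WT libraries, though by less than 1 SD of pTRE at their closest, and every E2F1 line overlapped with pTRE. The log2 fold change against pTRE was -0.01 in WT (95% interval -0.26 to 0.24), 0.16 in KK (-0.09 to 0.41) and 0.05 in R109K (-0.20 to 0.30), with adjusted p of 0.971, 0.315 and 0.806. The sign in WT turned with the scaling of the libraries (0.0009 with DESeq2-type size factors in edgeR). The order of levels was KK, R109K, pTRE and WT, again with no neighbours separated. Each of these intervals excludes a change of 1.5-fold in either direction.

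**Figure D2:**
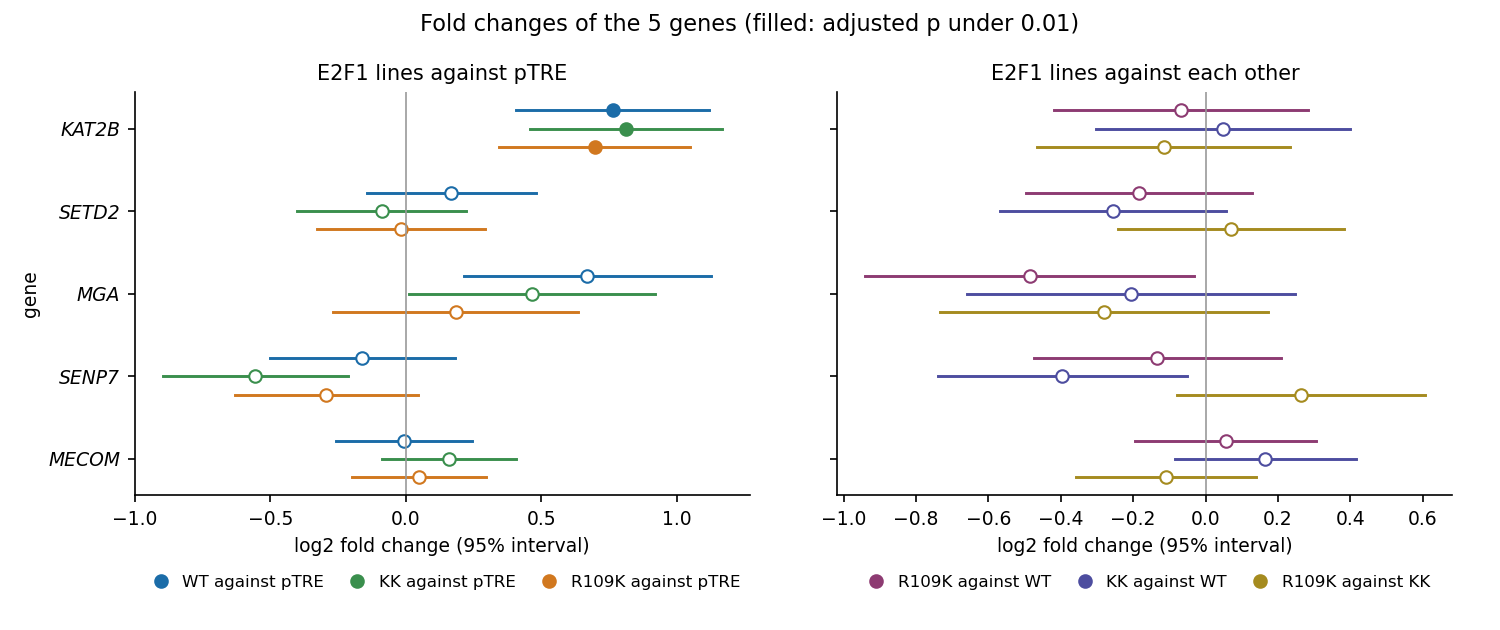
Log2 fold change of each gene with its 95% interval (horizontal line), for the E2F1 lines against pTRE on the left and against each other on the right; filled points have an adjusted p under 0.01 in edgeR's test. Only the 3 KAT2B points on the left are filled, and no point on the right is.

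Set against each other, the E2F1 lines gave no call for any of the 5 genes with edgeR or with DESeq2. An unadjusted p under 0.05 was seen for 1 member in R109K against WT (MGA), for 1 in KK against WT (SENP7) and for 0 in R109K against KK, where 22.3%, 8.51% and 12.4% of all tested genes had one. An adjusted p under 0.01 was reached over all tested genes by 0.71% in R109K against WT, 0.012% in KK against WT and 0.132% in R109K against KK.

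Levels can be compared between genes only per length, and per kilobase of annotated exon SETD2 had the highest level of the 5 in pTRE with 10.3 ± 1.14 CPM per kb. MGA followed with 5.05 ± 0.882, SENP7 with 4.18 ± 0.173, KAT2B with 3.58 ± 0.252 and MECOM with 3.00 ± 0.313 CPM per kb. In every E2F1 line the order of KAT2B and SENP7 was the other way round. KAT2B and SENP7 stood at 6.07 ± 0.563 and 3.75 ± 0.300 CPM per kb in WT, and at 5.80 ± 0.624 and 3.41 ± 0.287 in R109K. In KK they stood at 6.28 ± 1.62 and 2.83 ± 0.731 CPM per kb. Only in KK was SENP7 below MECOM, which was at 3.34 ± 0.179 there. The lengths are of all annotated exons joined (20.1 kb for MGA, 14.3 kb for SETD2, 9.26 kb for MECOM, 6.40 kb for SENP7 and 5.21 kb for KAT2B), so transcripts that use few of these exons are understated.

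Some libraries deviated in the same direction across the 5 genes. KK replicate 2 was the lowest library of its line for 5 of 5 genes and R109K replicate 2 for 4 of 5, whereas WT replicate 2 was the highest of its line for 3 of 5. In the control line, pTRE replicate 3 was the lowest for 4 of 5 and pTRE replicate 2 the highest for 3 of 5. R109K replicate 1 was the highest of its line for 4 of 5 and KK replicate 1 for 3 of 5, and WT replicate 1 was the lowest for 3 of 5. The deviation from the mean of the line was most marked for MGA, at -0.48 on the log2 scale in KK replicate 2, -0.37 in R109K replicate 2 and 0.34 in WT replicate 2. Long genes as a whole moved the same way. The median deviation of the 1491 genes with the greatest length of all annotated exons joined was -0.18 in KK replicate 2, -0.13 in R109K replicate 2 and 0.13 in WT replicate 2. MGA and SETD2 are among these genes, and their deviations exceeded that median in each of the 3 libraries. SENP7 and KAT2B are of middling length (62.9th and 51.0th percentile) and deviated by -0.47 and -0.45 in KK replicate 2. The part that this library difference plays in the results above was not tested.

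**Figure D3:**
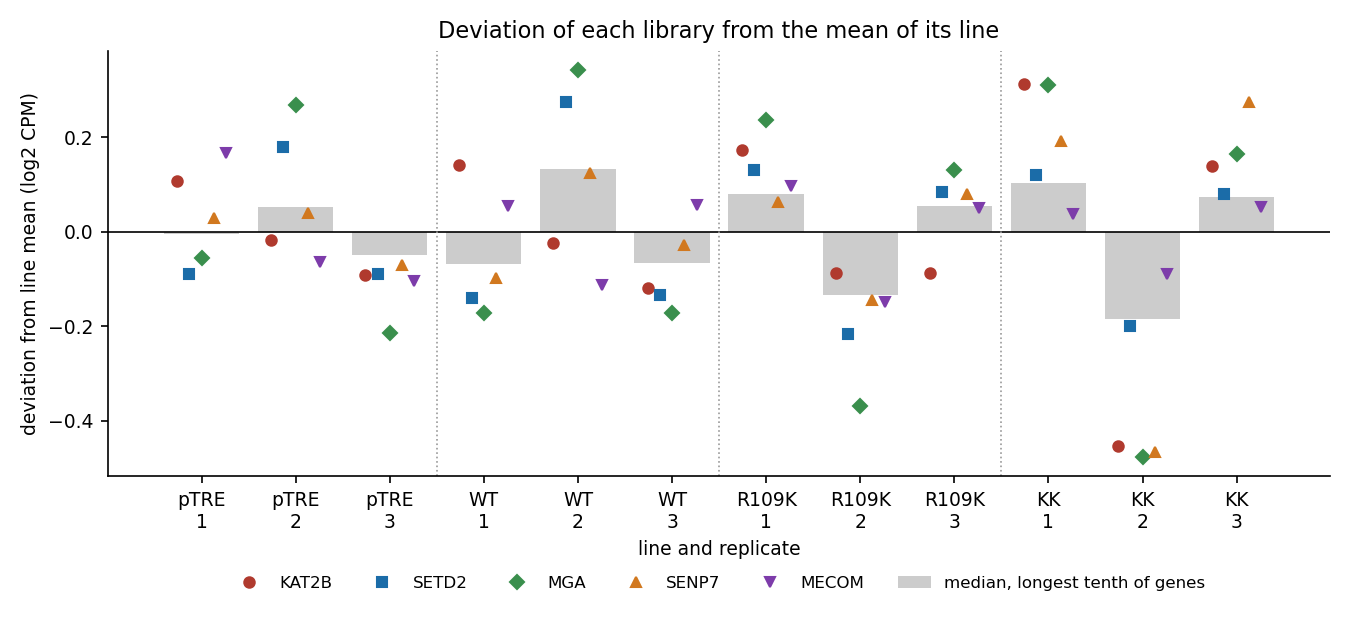
Deviation of each library from the mean of its line in log2 CPM, for the 5 genes (points) and as the median over the longest 10% of tested genes by joined exon length (grey bars, 1491 genes), by line and replicate. KK replicate 2 has all 5 points below 0, with SENP7, KAT2B and MGA between -0.48 and -0.45. R109K replicate 2 and pTRE replicate 3 also have all 5 points below 0, and R109K replicate 1, KK replicate 1 and KK replicate 3 have all 5 above it.

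The genes with the most similar pattern were sought over the 12 libraries among 14511 genes, by the correlation of log2 CPM, as a description. For KAT2B these were PHTF2, APPL1 and C2CD5 (Pearson r 0.984, 0.978 and 0.976). For MGA they were PARP14, FRYL and NUFIP2 (0.980, 0.976 and 0.975), and for SETD2 they were BIRC6, MDN1 and REV3L (0.982, 0.974 and 0.971). SENP7 was followed most closely by WDR11, PCNXL4 and CCDC163P (0.979, 0.961 and 0.954). MECOM had looser matches in EMB, PAK3 and MYEF2 (0.865, 0.847 and 0.837). The libraries share their line, depth and length bias, so these values also hold what whole libraries have in common. Among the 5 themselves r was 0.779 for SETD2 with MGA, 0.702 for KAT2B with MGA, 0.628 for SENP7 with SETD2 and -0.223 for KAT2B with SENP7.

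Genes that act with KAT2B were mostly not called. Of 24 other SAGA and ATAC subunits tested, 3 rose and 0 fell in WT, 2 rose and 1 fell in KK, and 2 rose and 0 fell in R109K. Over all genes 14.8%, 13.8% and 10% were called higher and 11.4%, 10.7% and 7.23% lower in WT, KK and R109K. The median log2 fold change of the list was -0.04, -0.03 and 0.03. TAF5L, a structural subunit, rose in all lines (0.70, 0.59 and 0.51 in WT, KK and R109K). ATXN7, of the deubiquitinase module, rose in WT and KK (0.82 and 0.59) and stood at 0.32 in R109K (adjusted p = 0.132). TADA1, a core adaptor subunit, rose in WT and R109K (0.49 and 0.54, and 0.44 in KK with adjusted p = 0.0110), and the ubiquitin hydrolase USP22 fell in KK (-0.49, with -0.36 in WT at adjusted p = 0.0267 and -0.24 in R109K at adjusted p = 0.157).

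Among 16 other genes of H3K36 methylation, the mark that SETD2 writes, 3 rose and 2 fell in WT, 3 rose and 3 fell in KK and 2 rose and 2 fell in R109K. The shares called higher over all tested genes were 14.8%, 13.8% and 10% in WT, KK and R109K, and those called lower were 11.4%, 10.7% and 7.23%. The median log2 fold change of the list was -0.04, -0.07 and -0.09. WHSC1L1 (NSD3), which dimethylates the same residue, rose in all lines (1.11, 0.96 and 0.75 in WT, KK and R109K). The demethylase KDM2B rose in all as well (0.56, 0.55 and 0.40). KDM4C and KDM4A, which remove the mark, moved apart. KDM4C rose in WT and KK (1.14 and 0.84, with 0.42 in R109K at adjusted p = 0.0410), and KDM4A fell in all lines (-0.55, -0.62 and -0.47). The other calls, named after their values were seen, were falls of ZMYND11, a reader of the mark, in WT and KK (-0.39 and -0.41), of the demethylase KDM4B in KK (-0.66) and of the elongation factor SUPT6H in R109K (-0.52).

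Of 15 genes of PRC1.6 and MAX, the partners of MGA, 1 rose and 1 fell in WT, 1 rose in KK and 1 rose in R109K. The median log2 fold change of the list was 0.00, 0.02 and 0.09. The shares over all tested genes were 14.8%, 13.8% and 10% called higher and 11.4%, 10.7% and 7.23% lower in WT, KK and R109K. YAF2, an adaptor subunit, rose in WT and KK (0.91 and 0.75, with 0.49 in R109K at adjusted p = 0.0284), and RING1, an E3 ligase subunit, fell in WT (-0.70, with -0.54 in KK at adjusted p = 0.0166 and -0.37 in R109K at adjusted p = 0.102). CBX3 (HP1γ) was the riser in R109K (0.67, adjusted p = 0.00746, with 0.39 in WT and 0.52 in KK), and it was also the only call among the 4 genes for HP1 and KAP1, on which SENP7 acts.

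The SUMO pathway besides SENP7 had 22 genes, all tested, of which 5 rose in WT, 4 in KK and 1 in R109K, with 0 falling in each. The median log2 fold change was 0.21, 0.14 and 0.18. Over all tested genes, 14.8%, 13.8% and 10% were called higher and 11.4%, 10.7% and 7.23% lower in WT, KK and R109K. ZNF451, a SUMO ligase, rose in WT and KK (1.03 and 0.75, with 0.56 in R109K at adjusted p = 0.0364). SENP3, another SUMO protease, rose in the same lines (0.72 and 0.76, with 0.57 in R109K at adjusted p = 0.0392). RNF4, the ligase that reads SUMO chains, did so too (0.58 and 0.55, with 0.40 in R109K at adjusted p = 0.0123), and the nucleoporin RANBP2 rose in WT (0.69). The other calls, named after their values were seen, were the protease SENP1 in WT (0.51), the ligase PIAS4 in KK (0.53) and SAE1, of the SUMO-activating enzyme, in R109K (0.57). ZNF451, SENP3, RNF4 and RANBP2 had a positive fold change in every line, and SENP7 a negative one.

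Of 17 PRDM and CtBP genes around MECOM 14 could be tested, and 5 rose in WT, 4 in KK and 3 in R109K with 0 falling, beside 14.8%, 13.8% and 10% of all tested genes called higher. The median log2 fold change was 0.50, 0.57 and 0.30. PRDM12 rose in WT and KK (2.62 and 1.90) from a low level of 0.170 CPM in pTRE. PRDM8 rose in all lines (1.15, 1.11 and 0.63) and PRDM2 in WT and KK (0.93 and 0.71, with 0.35 in R109K at adjusted p = 0.0873). PRDM1 (BLIMP1) rose in WT (0.84) and stood at 0.68 in KK (adjusted p = 0.0195) and -0.27 in R109K (adjusted p = 0.388). PRDM16, the closest relative of MECOM, rose in R109K (1.07) and was named after its values were seen. MECOM itself stood at -0.01, 0.16 and 0.05, and 9 of the 14 genes of the list were not called in WT.

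**Figure D4:**
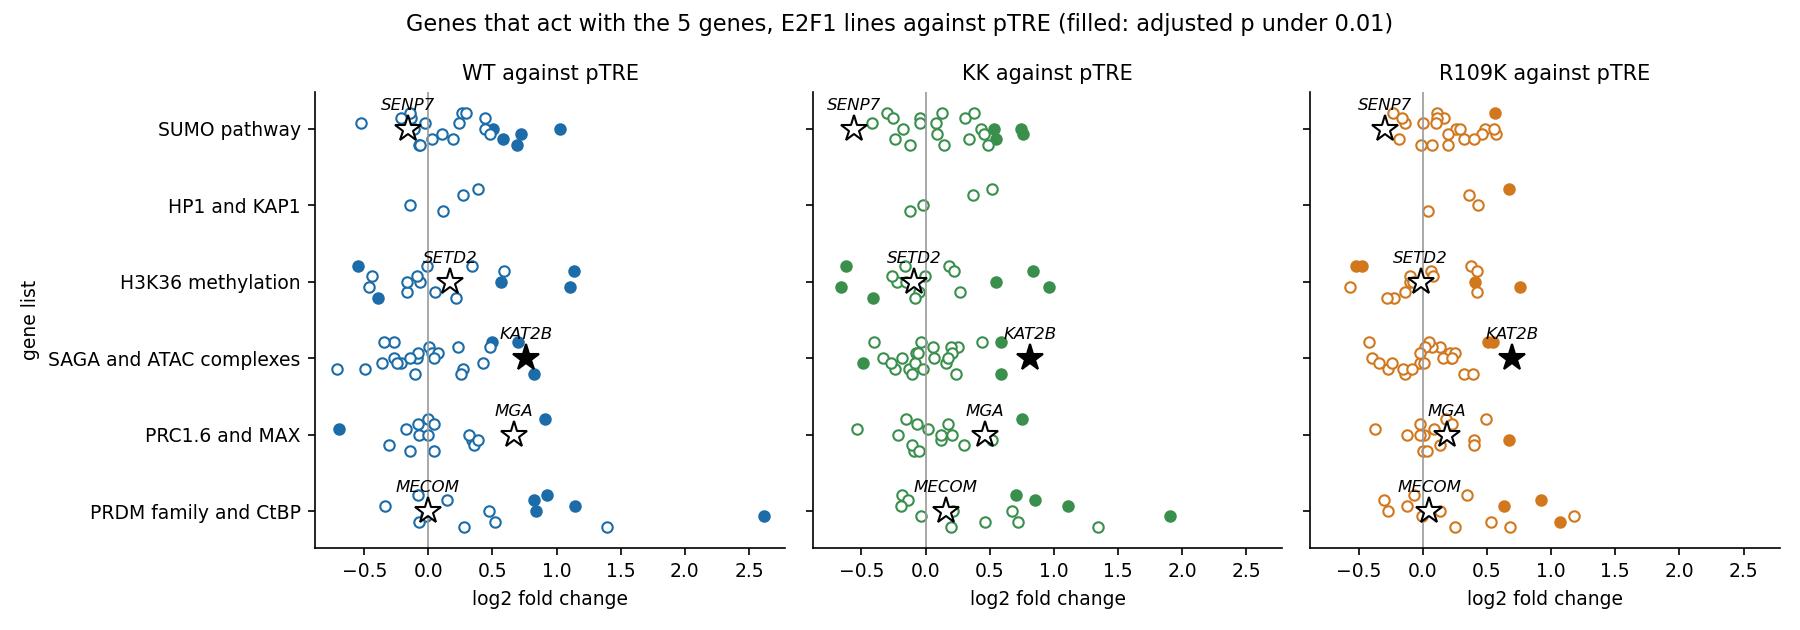
Log2 fold change of each tested gene in 6 lists, in WT, KK and R109K against pTRE, with filled points for an adjusted p under 0.01 in edgeR's test and stars for SENP7, SETD2, KAT2B, MGA and MECOM. KAT2B is the only filled star in each panel, and SENP7 lies left of 0 while the called genes of its list lie right of it.

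Besides the 5 genes, 4 RNAs that the study also names were looked at, TP73 (p73 in the study), CDC6, SPG21 and LEPREL1 (the older symbol of P3H2, the name used in the study). TP73, an E2F1 target gene, rose by 2.34 to 2.53 on the log2 scale in WT, KK and R109K, a larger change than that of any of the 5 genes. CDC6 rose in R109K (0.49, with 0.40 in WT at adjusted p = 0.0179 and 0.35 in KK at adjusted p = 0.0349). LEPREL1 rose in KK (0.44, with 0.33 in WT at adjusted p = 0.0339 and 0.25 in R109K at adjusted p = 0.119). SPG21 fell in WT (-0.45, with -0.35 in KK at adjusted p = 0.0160 and -0.20 in R109K at adjusted p = 0.167).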

How the data were processed

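Reads of 12 polyA libraries, made with a directional kit, were counted per gene by the authors, and the deposited values are raw counts for 25369 gene symbols with 5 summary lines. The submitters' processing notes name Trim Galore 0.4.3, STAR 2.5.1 and DESeq2 1.16.1 with build hg19. The counter's strand setting and gene annotation are not given in the sources used here, so antisense genes that overlap the 5 genes cannot be told apart from them. The summary lines (34.3% to 68.8% of reads) were left out. The 16625 genes kept by filterByExpr were scaled by TMM and fitted together over the 4 lines, with edgeR 4.0.16 (R 4.3.3), by the quasi-likelihood test, with Benjamini-Hochberg adjustment over all tested genes and a threshold of 0.01. CPM were scaled the same way, and log2 CPM used a prior count of 2. The fit was tested on simulated data. DESeq2 1.42.0, other scaling, other filters, a replicate block, 6-sample fits and each library left out were alternatives. The members and lists were chosen with earlier results of these data known. Named besides the 5 genes and E2F1 were, in each list, at most 4 genes with the largest absolute change in WT among those called against pTRE, and the 3 genes most similar to each member; markers and lists are counted otherwise. Positions and exons came from GENCODE v44lift37 on GRCh37, promoters from RefSeq on GRCh38.p14. The share of tested genes with an exonic length was 89.6%. The result of 1 listed gene is not reported here.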

Additional observations from a re-analysis of the deposited data

How the results depend on the processing

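Scaling by RLE factors, DESeq2, no filter, at least 10 reads in every sample, a replicate block, fits of the 6 samples compared and each library left out in turn were computed for every member and comparison and for E2F1, and 427 of the 474 recomputed values kept their direction and their side of the threshold. With the rule of over 2-fold added, 0 members were called in each comparison with pTRE. DESeq2 called 2 members in WT (MGA at 0.677) and 2 in KK (SENP7 at -0.547), and without a filter 2 were called in KK (SENP7 at -0.562); the cause was not tested. MECOM in WT against pTRE turned to 0.000853 with RLE factors, 0.00325 with DESeq2, 0.00751 with at least 10 reads and 0.0119 with 6 samples.

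With 1 library left out, which leaves that line 2 samples, members called ranged from 0 to 1 in WT, 0 to 0 in R109K and 1 to 2 in KK. KAT2B ranged from 0.678 to 0.814 in WT and from 0.599 to 0.751 in R109K, and SENP7 in KK from -0.694 to -0.363. Differences near 0 changed sign. Against pTRE these were MECOM in WT (-0.0619 to 0.0766) and in R109K (-0.00669 to 0.136), and SETD2 in KK (-0.149 to 0.00388) and in R109K (-0.0890 to 0.0823). Against WT they were MECOM in R109K (-0.000391 to 0.129), KAT2B in KK (-0.106 to 0.243) and KAT2B in R109K (-0.156 to 0.0131). Against KK they were SETD2 in R109K (-0.0212 to 0.172) and KAT2B in R109K (-0.306 to 0.0413).

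Same-numbered libraries of different lines had a mean correlation of 0.0436 in their deviations over 18 pairs (-0.295 to 0.470). For different numbers it was -0.0235 over 36 pairs. Shifts in opposite directions cancel in such a mean, so it cannot show whether same-numbered libraries were handled together. The replicate block changed no call, with KAT2B at 0.758 in WT, 0.794 in KK and 0.691 in R109K. The depth, lowest in WT replicate 2, limits none of the 5 genes to fewer than 266 reads.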
